A study of Mus musculus with 2 samples.

Results

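The genes encoding integrins, laminins and nidogens were examined in tissue from above and below the dorsal aorta of the mouse embryo at embryonic day 10.5. Members were taken by gene symbol from the features of the array: 38 genes out of 24675 with a symbol, made up of 18 integrin alpha subunits, 8 integrin beta subunits, 10 laminin chains and 2 nidogens. The symbol alone decided membership, and no measured value entered that rule. The set itself was chosen with earlier results of these data known. Both pieces were cut by laser from 20 µm cryosections of the same untreated C57Bl/6 embryos, the dorsal piece lying between the notochord and the aortic roof and the ventral piece beneath the vessel. How many embryos were pooled is not given in the sources read. RNA from each piece, between 200 and 1000 pg, was amplified and hybridised to 1 Affymetrix Mouse Gene 2.0 ST array per tissue, both labelled biological replicate 4. A single array per tissue gives no replicate error and allows no test, and the array and the tissue cannot be told apart. In pieces that hold many cell types, fewer cells of a type and less RNA per cell cannot be told apart either.

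Integrins are cell-surface receptors, each built of an alpha and a beta subunit, that tie the cytoskeleton to the surrounding matrix. Laminins are cross-shaped trimers of an alpha, a beta and a gamma chain and form the first sheet of a basement membrane, and nidogens bridge that sheet to the type IV collagen network. In this region of the embryo, basement membranes underlie the aortic endothelium and the epithelium of the body cavity, and β1 integrins are known to be needed for blood stem cells to colonise their later homes.

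Values are log2 expression levels, so that a difference of 1 is 2-fold. The deposited table has no detection calls. A background mark was therefore set at 3.92, the 95th percentile of 1360 receptor genes of the nose (olfactory and vomeronasal), pooled over the 2 arrays and presumed silent in these tissues; the 99th percentile of the same genes was 5.48. Of all genes, 28.7% exceeded the mark on at least 1 array. Differences were read over the 13982 genes, 22 of them members, whose higher value reached 3.10, the median level of all genes. Counts of genes 2-fold apart rest on the measured values, also where 1 of the levels lies under the mark; the printed fold is then a lower bound against the mark and can be under 2. The median difference of these kept genes, ventral minus dorsal, was -0.12. The tissue labels were checked against markers of position. Of 9 sclerotome and notochord genes, 5 had a dorsal excess of 2-fold or more and none a ventral one. Of 11 genes of coelomic epithelium and visceral mesenchyme, 4 had a ventral excess of that size and none a dorsal one. Among all kept genes, 9.44% had such a ventral and 4.88% such a dorsal excess. The check is not independent, since the lists were chosen with earlier results of these data known.

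Members over background were about as frequent as among all genes. Of the 38 members, 9 exceeded the mark in dorsal tissue, beside 24.2% of all genes, and 8 in ventral tissue, beside 23.8%. On at least 1 array 10 members did so, beside 28.7%, and on both arrays 7, beside 19.3% of all genes. The 7 were Itga5, Itgav, Itgb1, Itgb5, Lamb1, Lamc1 and Nid2. Itga7 and Lamc3 exceeded it in dorsal tissue alone, each by under 0.05, and Nid1 in ventral tissue alone. The levels of the other 28 ran from 2.19 to 3.78, where a difference between tissues was not detectable at this signal. Of the 22 kept members, Itgav and Itgb1 had a ventral excess of 2-fold or more, 2 genes against 9.44% of all kept genes. No member had such a dorsal excess, against 4.88%, so that 2 of 22 lay 2-fold apart in either direction, against 14.3%. Among members over the mark on at least 1 array these were 2 of 10 ventral and 0 of 10 dorsal, beside 17.7% and 8.46% of all such genes and 26.2% for both directions. The share of members 2-fold apart thus lay near or under that of the whole array and is not a property of the family. The median difference over the 22 was -0.02, with 11 members higher on each side. Of the 13982 kept genes, 5778 were higher in ventral and 8194 in dorsal tissue, with a median of -0.12. The members' median was 0.05 after quantile normalization of the columns and 0.10 after centring, so its sign is not fixed. The median of all kept genes moved too, to -0.07 and 0.

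**Figure D1:**
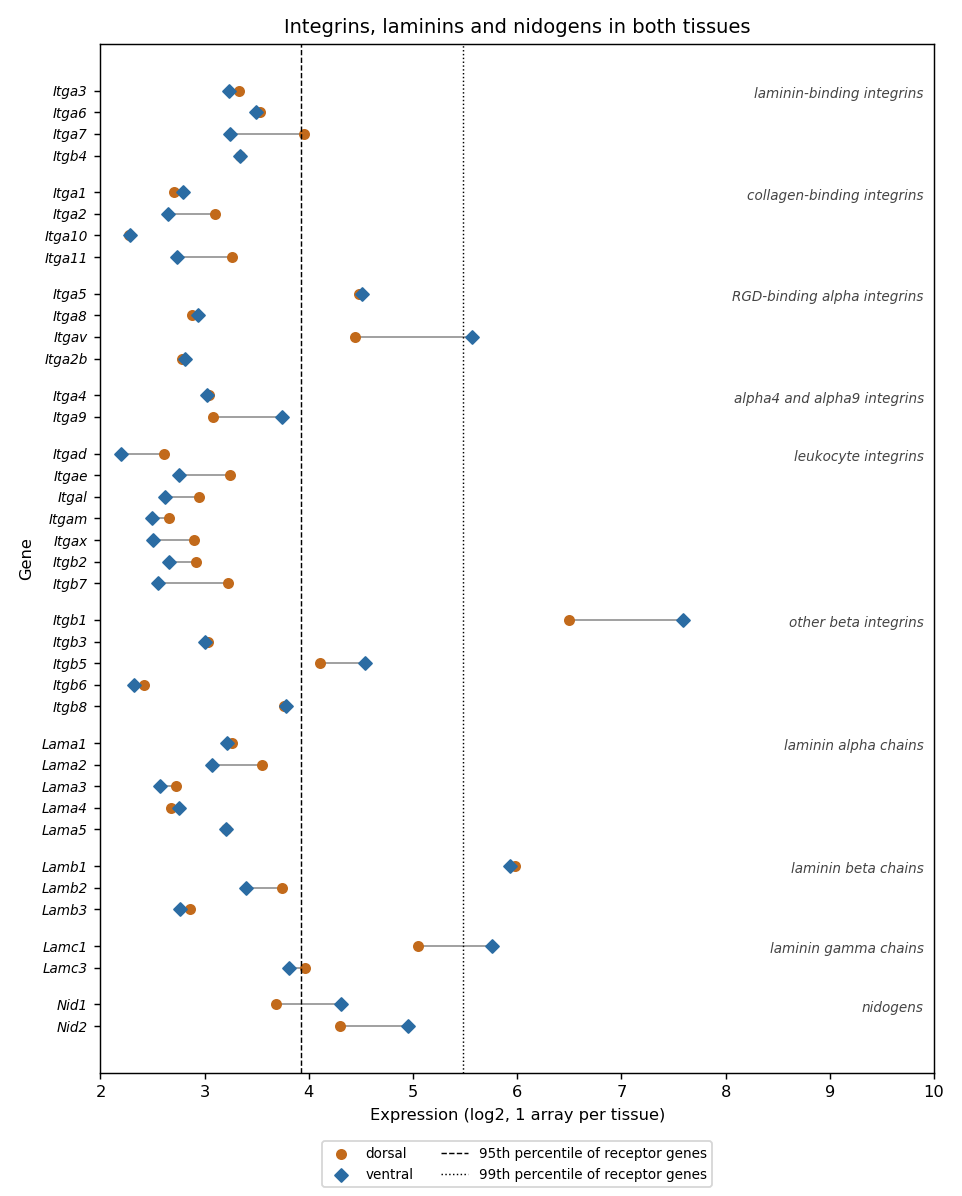
Level of each of the 38 genes (vertical axis, grouped by role) on the dorsal array (circles) and the ventral array (diamonds), in log2 units on the horizontal axis. The dashed line is the 95th percentile of receptor genes, 3.92, and the dotted line the 99th, 5.48; most pairs of points lie left of the dashed line, and Itgb1 lies farthest to the right at 6.49 and 7.59.

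Itgb1 encodes the β1 subunit, which pairs with more alpha subunits than any other beta chain. Its level was 6.49 in the dorsal piece and 7.59 in the ventral piece. The ventral level was 2.14-fold the dorsal one, a log2 difference of 1.10. Itgav encodes αv, the alpha subunit that binds the RGD tripeptide of fibronectin, vitronectin and latent TGF-β and that pairs with several beta chains. Its level was 4.44 in the dorsal piece and 5.56 in the ventral piece, a 2.18-fold difference, 1.12 on the log2 scale. Both genes exceeded the mark on both arrays, and both were higher under the aorta. Neither stands out among genes of comparable signal: 84.8% of the genes over the mark had a smaller signed difference than Itgav and 84.3% than Itgb1, and among genes over the receptors' 99th percentile on either array 42.9% lay 2-fold apart, 30.1% with a ventral and 12.7% with a dorsal excess. The scaling moved both. With differences taken relative to the median of kept genes, they were 1.24 for Itgav and 1.22 for Itgb1. After quantile normalization of the columns they were 0.93 and 0.78, under 2-fold, and after a loess on level Itgb1 was under 2-fold at 0.89 while Itgav was at 1.07.

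**Figure D2:**
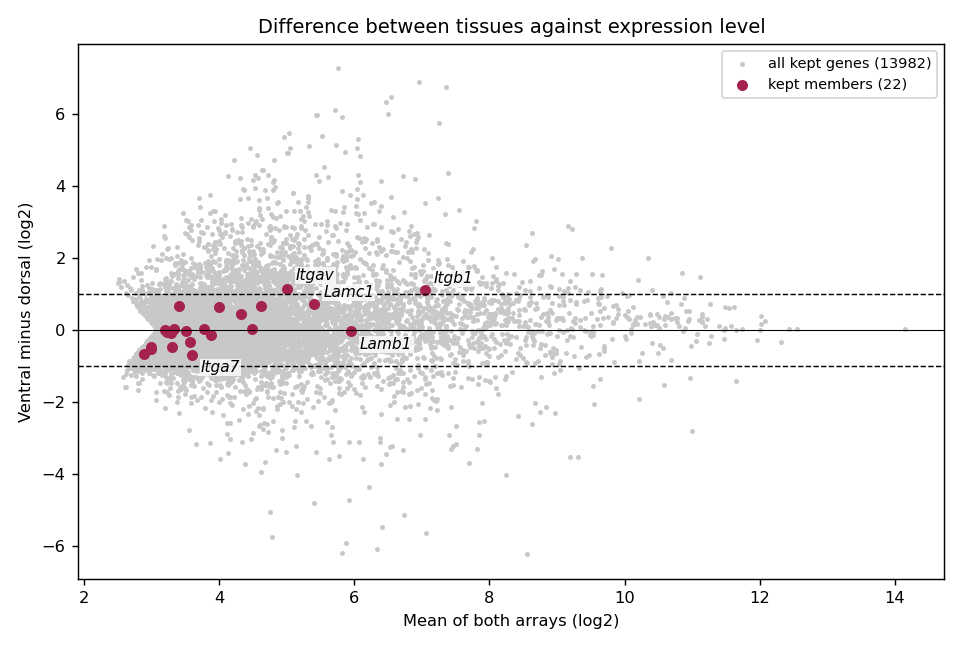
Ventral minus dorsal difference (vertical axis, log2) against the mean of both arrays (horizontal axis, log2) for the 13982 kept genes (grey) and the 22 kept members (red). Dashed lines mark 2-fold; Itgav and Itgb1 sit just above the upper line, inside the spread of other genes at their level, and no member lies under the lower one.

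Promoter windows of 5 members are shown because these genes carry the pattern above. Itgb1 and Itgav are the 2 members with a ventral excess of 2-fold or more as reported, which fell under 2-fold after quantile normalization. Itga5 and Lamb1 exceeded the mark on both arrays with little difference, and Nid1 exceeded it in ventral tissue alone. Each window runs from 250 bases before to 50 after an annotated start in RefSeq on the GRCm38.p6 build, 5′ to 3′ on the gene's strand, and capitals mark the GC box (GGGCGG) and the CCAAT box (CCAAT), found on either strand, so that CCGCCC and ATTGG are the same motifs read on the other strand.
Itgb1, chr8:128685404-128685703, + strand: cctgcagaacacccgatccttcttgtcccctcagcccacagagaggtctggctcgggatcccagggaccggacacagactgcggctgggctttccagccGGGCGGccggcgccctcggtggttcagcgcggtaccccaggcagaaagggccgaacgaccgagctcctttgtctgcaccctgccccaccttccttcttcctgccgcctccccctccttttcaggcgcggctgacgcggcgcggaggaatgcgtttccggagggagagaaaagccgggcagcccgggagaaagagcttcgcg
Itgav, chr2:83724147-83724446, + strand: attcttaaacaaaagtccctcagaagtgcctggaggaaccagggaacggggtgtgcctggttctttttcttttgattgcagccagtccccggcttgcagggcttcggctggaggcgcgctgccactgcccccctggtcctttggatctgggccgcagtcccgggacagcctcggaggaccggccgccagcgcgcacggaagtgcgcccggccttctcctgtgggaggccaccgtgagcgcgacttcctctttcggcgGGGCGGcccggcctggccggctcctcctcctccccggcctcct
Itga5, chr15:103366742-103367041, - strand: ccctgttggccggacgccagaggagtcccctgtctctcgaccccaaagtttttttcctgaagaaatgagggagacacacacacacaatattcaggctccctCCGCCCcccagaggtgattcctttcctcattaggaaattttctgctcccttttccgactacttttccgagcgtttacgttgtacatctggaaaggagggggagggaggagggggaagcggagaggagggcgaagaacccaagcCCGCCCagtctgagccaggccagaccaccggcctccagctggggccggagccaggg
Lamb1, chr12:31265043-31265342, + strand: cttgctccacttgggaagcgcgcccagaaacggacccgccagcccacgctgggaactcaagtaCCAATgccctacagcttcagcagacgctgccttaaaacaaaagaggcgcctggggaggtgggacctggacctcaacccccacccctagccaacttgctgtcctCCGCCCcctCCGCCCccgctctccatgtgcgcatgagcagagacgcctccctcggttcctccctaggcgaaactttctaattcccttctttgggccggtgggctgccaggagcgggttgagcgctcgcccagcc
Nid1, chr13:13437352-13437651, + strand: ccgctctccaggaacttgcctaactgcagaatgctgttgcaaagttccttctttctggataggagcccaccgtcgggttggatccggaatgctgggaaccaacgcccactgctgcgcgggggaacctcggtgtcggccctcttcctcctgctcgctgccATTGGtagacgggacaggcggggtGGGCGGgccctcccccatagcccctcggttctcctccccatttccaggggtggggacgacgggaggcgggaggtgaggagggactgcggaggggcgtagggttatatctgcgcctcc
None of the 5 holds a TATA box (TATAAA) or a CArG box on either strand. Of the 38 members, 24 were found in the promoter table, with 27 windows between them. All 6 windows of members over the mark, those of Itgb5 and the 5 shown, held a GC box. So did 7 of the 21 windows of members under it, and 35.7% of all 32851 windows. Itga7, Lamc1, Lamc3 and Nid2 also exceeded the mark on at least 1 array but were not in the promoter table. The windows over the mark had a median of 20 CpG dinucleotides and 65.2% G and C, the others 6 and 56.7%, and all windows 7 and 52.7%. Windows of other genes over the mark were not counted apart, so whether these features are particular to the members was not tested. A CCAAT box was present in Lamb1 and Nid1 of the 6, in 3 of the 21, and in 37.4% of all windows. No member window held a TATA box, which 13.6% of all windows did, and a CArG box was present in Itgb6 and Lama2, both under the mark, beside 1.63% of all windows. Itgb1 and Itgav had 27 and 24 CpG dinucleotides and 1 GC box each, and Itga5 had 13 and 2. These letters describe the windows and say nothing of what binds there.

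The RGD-binding alpha subunits were divided. Itga5, whose product joins β1 to form the main fibronectin receptor, stood at 4.48 in the dorsal piece and 4.51 in the ventral piece. That difference, 0.03, was -0.09 after quantile normalization and 0.14 after centring, so no direction can be given for it. Itga8, whose β1 heterodimer binds nephronectin, was at 2.87 and 2.93, and Itga2b, the platelet fibrinogen receptor subunit also carried by early blood progenitors, at 2.78 and 2.81, all under the mark. The 6 platelet and megakaryocyte markers analysed beside Itga2b were also all under the mark on both arrays, with means of 3.17 and 2.92. A signal of such cells was not detectable on these arrays.

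Laminin-binding subunits were near background. Itga7, which encodes a laminin receptor subunit typical of muscle, was at 3.95 in dorsal and 3.24 in ventral tissue, the dorsal level barely over the mark and the ventral one under it, so that no size is given for the difference. Of 8 skeletal muscle precursor markers, 5 exceeded the mark in dorsal and 2 in ventral tissue, their mean level being 4.07 and 3.74. Of the 6 kept, 4 were higher in dorsal tissue, beside 8194 of all 13982 kept genes. Pax7 was higher there by 2-fold or more on measured values, and Actc1 and Tnnt1 were higher in ventral tissue by 0.40 and 0.65. The part of the muscle markers in the Itga7 value was not tested. Itga3, prominent in epithelia, was at 3.33 and 3.23. Itga6, a subunit of hemidesmosomes and of many stem cells, was at 3.54 and 3.49. Itgb4, its hemidesmosome partner, was at 3.34 on both arrays. Markers of epithelium were mixed, 3 of 8 exceeding the mark in dorsal and 2 in ventral tissue. Epcam and Cdh1 were under it, at 2.71 and 3.04 and at 3.09 and 2.90, dorsal value first. Krt8 and Krt18, keratins of simple epithelia, were over it in both pieces, at 5.14 and 5.09 and at 4.27 and 5.17, and Cldn3 was over it in the dorsal piece alone, at 4.36 and 3.23.

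The 4 collagen-binding alpha subunits were under the mark on both arrays. Itga1 was at 2.70 and 2.79, Itga2 at 3.10 and 2.64, Itga10, a cartilage subunit, at 2.28 and 2.29, and Itga11, a subunit of mesenchymal cells, at 3.26 and 2.74, dorsal value first. Of these Itga11 alone reached the level for the comparison. Itga4, whose product binds VCAM-1 and fibronectin and serves the homing of blood progenitors, was at 3.04 and 3.02. Itga9, a receptor subunit for tenascin and other ligands, was at 3.08 and 3.75; the ventral level fell short of the mark by under 0.2.

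All 7 integrins of leukocytes were under the mark in both tissues. Their levels ran from 2.61 to 3.24 in dorsal and from 2.19 to 2.75 in ventral tissue. Itgb2, the shared beta subunit of Itgal, Itgam, Itgax and Itgad, was at 2.92 and 2.66. Itgb7, the partner of Itgae in mucosal lymphocytes, was at 3.22 and 2.55. Each of the 7 was lower on the ventral array, by 0.16 to 0.67. Of all 24675 genes with a symbol, 15610 were lower there. The receptor genes taken as silent had medians of 2.40 in dorsal and 2.29 in ventral tissue, and so were lower there too. After a loess on level, 5 of the 7 lay higher on the ventral array instead. These 5 were under the level for the comparison, and the trend was fitted on the kept genes alone. It therefore cannot give a direction for them. The kept Itgae and Itgb7 stayed lower on the ventral array, at -0.19 and -0.23. Ptprc, the common leukocyte antigen, was at 2.24 and 2.44 and Csf1r, the macrophage growth factor receptor, at 2.80 and 2.70. Of 11 leukocyte and macrophage markers, 2 exceeded the mark in dorsal and 3 in ventral tissue, among them Cx3cr1 at 6.07 and 5.62.

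Among the remaining beta subunits, Itgb5, the partner of αv in a vitronectin receptor, was over the mark in each piece, with a dorsal level of 4.11 and a ventral level of 4.54. Its difference of 0.43 was under 2-fold and kept its sign under each of the 4 other scalings, between 0.36 and 0.55. Of the genes over the mark on at least 1 array, 67.1% had a smaller signed difference. Itgb3, the other vitronectin receptor subunit, was at 3.04 in the dorsal piece with a difference of -0.03, and Itgb6, an epithelial activator of TGF-β, stood at 2.42 and 2.32. Itgb8, which also activates TGF-β with αv, lay close under the mark at 3.77 and 3.78.

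An integrin needs both of its subunits. Of 24 alpha-beta pairs known in mammals, 3 had both genes over the mark on both arrays: Itga5 with Itgb1, Itgav with Itgb1, and Itgav with Itgb5. Itga7 with Itgb1 made a 4th in dorsal tissue. In the other 9 of the 12 pairs that include Itgb1, the alpha gene was under the mark in both pieces, and 8 of the 24 pairs had neither gene over the mark on any array. The number of pairs depends on the mark. At the receptor genes' 90th percentile, 3.39, it was 6 in each tissue. At their 99th percentile it was 0 in dorsal and 1 in ventral tissue, Itgav with Itgb1.

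**Figure D3:**
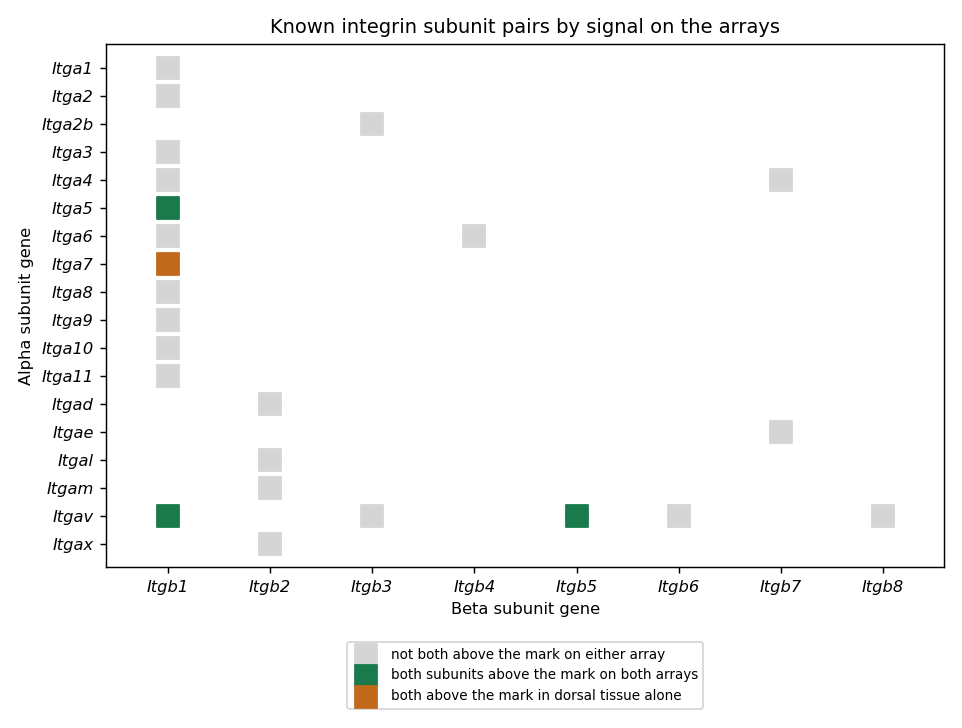
Each square is 1 of 24 known integrin pairs, placed by its alpha gene (vertical axis) and beta gene (horizontal axis). Green squares, 3 in number, have both genes over the 95th percentile mark on both arrays, the orange square in dorsal tissue alone, and grey squares on neither array.

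Among laminin chains, the beta 1 and gamma 1 chains, shared by most laminins of the embryo, were the ones over the mark on both arrays. Lamb1 was at 5.97 in dorsal and 5.93 in ventral tissue, a difference of -0.04 that was 0.08 after centring and -0.34 after quantile normalization. Lamc1 was at 5.05 and 5.76, a ventral excess of 0.71 or 1.64-fold, under the 2-fold level. The excess stayed positive, between 0.42 and 0.83, under the other scalings. A smaller signed difference was found for 75.6% of the genes over the mark on at least 1 array. The chains that join in 1 trimer thus gave unlike differences on these arrays. Lamc3 was at 3.96 and 3.81, on either side of the mark. Lamb2, the beta chain of muscle and vessel basement membranes, was at 3.75 and 3.40, and Lamb3, an epithelial chain, at 2.86 and 2.76.

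No laminin alpha chain exceeded the mark, although every laminin needs one. Lama1, the early embryonic chain, was at 3.26 and 3.21, dorsal value first, and Lama5, the most widespread chain of later basement membranes, at 3.21 on both arrays. Lama2, the chain of muscle and nerve, was at 3.55 and 3.07. Lama4, the endothelial and mesenchymal chain, was at 2.68 and 2.75, and Lama3, the epithelial chain, at 2.73 and 2.57. Levels of different genes on an array are not comparable, so no ratio between chains is given.

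Both nidogens were higher in ventral tissue and under 2-fold. Nid1 was at 3.69 in dorsal and 4.31 in ventral tissue, a difference of 0.62 with the dorsal level under the mark. Nid2 was at 4.30 and 4.95, a difference of 0.65, or 1.57-fold. Under the other scalings these lay between 0.58 and 0.74 for Nid1 and between 0.51 and 0.77 for Nid2. Among genes over the mark on at least 1 array, 73.4% had a smaller signed difference than Nid1 and 74.1% than Nid2. Endothelium and smooth muscle are cell types that lay down vessel basement membrane. On measured values, 3 of 12 kept endothelial and 4 of 9 kept smooth muscle genes showed a ventral excess of 2-fold or more, and none a dorsal one. Of all kept genes, 9.44% showed such a ventral excess and 4.88% such a dorsal one. Endothelial markers were not of 1 direction: 8 of the 12 were higher in ventral and 4 in dorsal tissue, among the latter Eng with a difference of -0.56 and Flt1 with -0.50, with a median difference of 0.16. Of the 9 smooth muscle genes 7 were higher in ventral tissue, with a median of 0.99. Of all 13982 kept genes, 5778 were higher in ventral and 8194 in dorsal tissue, with a median of -0.12. Over all 14 endothelial markers the mean level was 3.62 in dorsal and 3.98 in ventral tissue, with 4 and 6 over the mark; over 10 smooth muscle and pericyte markers it was 3.70 and 4.65, with 3 and 7 over it. Their part in the ventral excess of Itgb1, Itgav, Lamc1 and the nidogens was not tested.

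**Figure D4:**
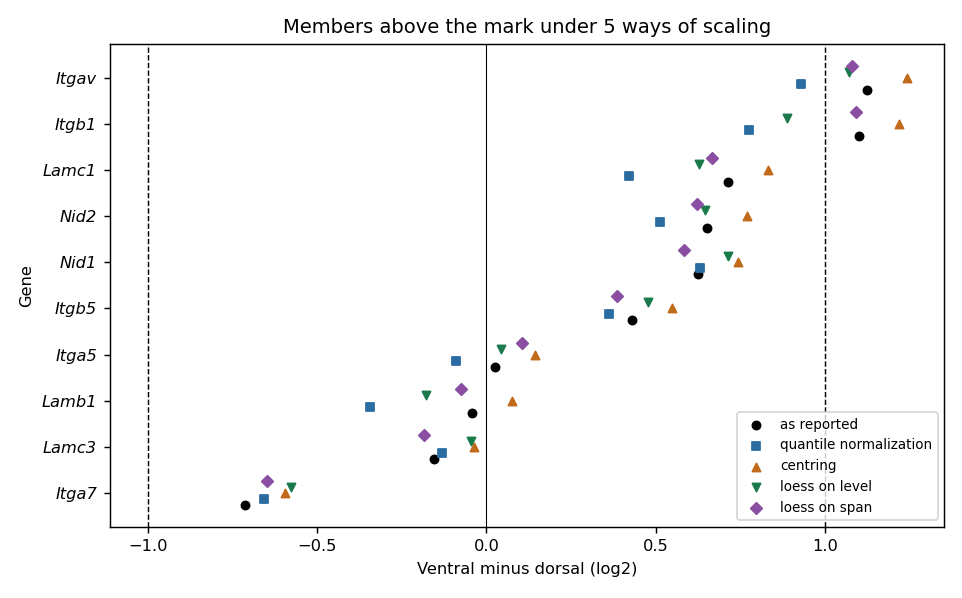
Ventral minus dorsal difference (horizontal axis, log2) of the 10 members over the mark on at least 1 array, each under 5 scalings of the data (symbols); dashed lines mark 2-fold. Itgav and Itgb1 cross the 2-fold line with the scaling, Lamc1, Nid1, Nid2 and Itgb5 stay between 0 and 1, and Itga5 and Lamb1 lie on both sides of 0.

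Other genes of the same pathway were taken from 4 lists of 98 genes, of which 89 were analysed here and 72 kept. Of these 72, 5 showed a ventral and 4 a dorsal excess of 2-fold or more, beside 9.44% and 4.88% of all kept genes. The split of 5 against 4 was 4 against 5 after quantile normalization and 5 against 2 after a loess on genomic span. No direction is therefore given for the lists as a whole. Their median difference was -0.06, beside -0.12 for all kept genes. Of 18 other basement membrane components none was 2-fold apart. Of the 18, 6 were higher in ventral and 12 in dorsal tissue, with a median of -0.16, beside -0.12 for all kept genes. Col4a1, a type IV collagen chain, of the network that nidogens link to laminin, was at 4.75 and 4.87. Col4a2, another such chain, was at 3.96 and 3.63, over the mark in dorsal tissue alone. Pxdn was over the mark on both arrays, at 4.05 and 4.92, 1.83-fold higher in ventral tissue. Hspg2, the heparan sulfate proteoglycan perlecan, was at 4.33 on both arrays. Among 9 kept laminin receptors outside the integrins and their anchors, Dag1, which encodes dystroglycan, was at 4.76 in dorsal and 3.51 in ventral tissue, at least 1.79-fold higher in dorsal tissue. It was the sole gene of its list at least 2-fold apart on measured values. The difference of Dag1 lay between -1.31 and -1.13 under the other scalings. Itgb1 was higher in ventral tissue, but its product is shared by laminin receptors and other integrins. Of its laminin-binding alpha partners, Itga3 and Itga6 were under the mark and Itga7 exceeded it in dorsal tissue alone. No direction is therefore given for laminin-binding integrins.

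Ligands bound by αv and other integrins included 3 of 17 kept genes with a ventral excess of 2-fold or more on measured values and 1 with a dorsal one. Among all kept genes these shares were 9.44% and 4.88%. Postn, which encodes periostin, a ligand of αv integrins, was at 4.59 in dorsal and 8.85 in ventral tissue, 19.1-fold higher. Tnc, which encodes tenascin C, was at 3.22 and 5.71, at least 3.47-fold higher. Tgfbi, another αv ligand, was at 3.27 and 4.69; its dorsal level was under the mark, and against the mark the excess was at least 1.71-fold, so that 2-fold is not established for it. Ccn2, a matricellular protein, was the dorsal one, at 5.04 and 4.01, and fell under 2-fold after centring, at -0.91, and after a loess on genomic span, at -0.81. The median of this list was -0.09, beside -0.12 for all kept genes. Fn1, the fibronectin bound by the Itga5 product, was within 2-fold at 8.70 and 9.16.

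The proteins that couple integrins to actin were split between the tissues, with a median difference of 0.08. Of 28 kept genes, 2 showed a 2-fold excess on each side, beside 9.44% ventral and 4.88% dorsal among all kept genes. Actn1, which encodes the actin crosslinker alpha-actinin, was at 4.36 in dorsal and 6.10 in ventral tissue, 3.33-fold higher. Rsu1, a partner of the PINCH adaptor, was at 7.86 and 9.04, 2.27-fold higher, and fell under 2-fold after quantile normalization, at 0.98, and after a loess on level, at 0.92. In the other direction Pxn, which encodes the focal adhesion scaffold paxillin, was at 5.53 in dorsal and 4.38 in ventral tissue, 2.22-fold higher in dorsal tissue. Zyx, which encodes zyxin, a protein of mature adhesions, was at 5.66 and 4.53, 2.18-fold higher in dorsal tissue, and was under 2-fold after a loess on genomic span, at -0.98. The split of the list, 2 ventral against 2 dorsal, was 1 against 3 after quantile normalization or a loess on level and 2 against 1 after a loess on genomic span. Tln1, the talin that activates integrins by binding beta tails, was at 4.48 and 4.56, and Fermt2, its kindlin partner, at 5.12 and 5.26.

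**Figure D5:**
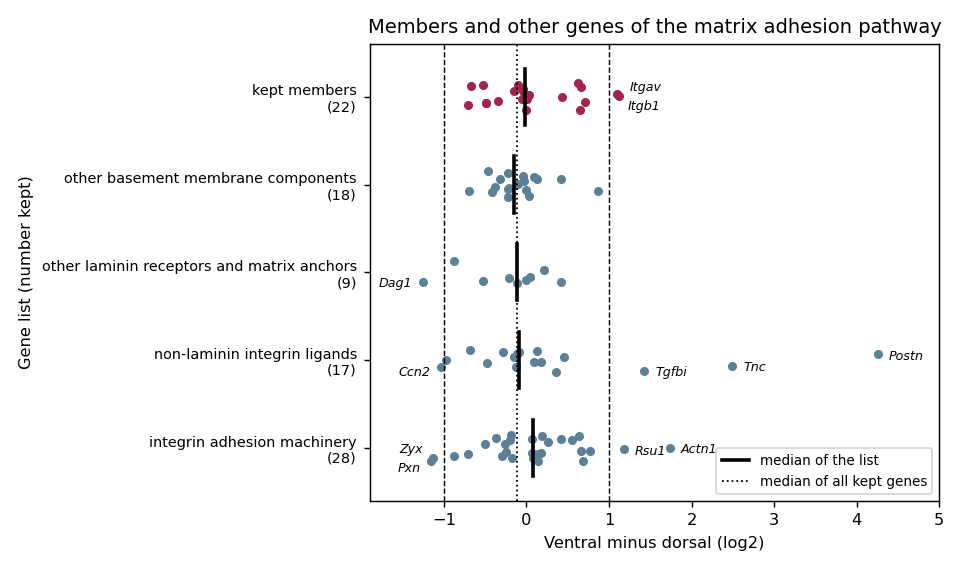
Ventral minus dorsal difference (horizontal axis, log2) of each kept gene (points) in the member set and in 4 pathway lists (vertical axis, with the number kept); bars are list medians, the dotted line is the median of all kept genes, -0.12, and dashed lines mark 2-fold. The medians lie close to the dotted line while single genes such as Postn at 4.26 lie far from it.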

How the data were processed

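RNA of 1 dorsal and 1 ventral piece was measured on Mouse Gene 2.0 ST arrays. The table deposited by the authors holds a log2 level for each gene on each array, made with RMA in Affymetrix Expression Console, per the submitters' processing notes. RMA subtracts background, makes the probe distributions of the arrays alike and combines the probes of a gene, which compresses low levels. The sources read give no versions or probe annotation, nor which arrays were normalized together. Of 25429 features, 754 without a symbol in the platform annotation were left out. Genes were compared by the difference ventral minus dorsal, called at 2-fold; where 1 level lay under the mark the fold is a lower bound against it. A single array per tissue and the lack of detection calls limit the precision. The members, lists and background mark were chosen with earlier results of these data known; subunit pairs were set beside the mark after seeing the data. Every member is named, and of each pathway list the genes at least 2-fold apart over the mark. Col4a1, Col4a2, Pxdn, Hspg2, Fn1, Tln1, Fermt2 and the markers named were added after their values were seen. Alternatives covered scaling, centring, loess trends (span 0.3), floors, thresholds and marks. The 2-fold calls and the scalings were tested on simulated data, with large shifts planted in genes of higher level and little noise. No shift was planted in genes of low level, where most members lie. The background mark, the pair counts and the motif search were not tested in this way. Python 3.11.15, numpy 2.4.6, pandas 2.3.3, statsmodels 0.14.6 and matplotlib 3.10.9 were used.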

Additional observations from a re-analysis of the deposited data

How the results depend on the processing

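No paired analysis was possible because there was 1 array per tissue, so no model can be fitted; no array could be left out for the same reason. The count of members with a ventral excess of 2-fold or more, 2 as reported, was 0 after quantile normalization and 0 at a 3-fold threshold, 1 after a loess on level and 6 at a 1.5-fold threshold; the dorsal count was 0, and 2 at the 1.5-fold threshold. The members' median difference, -0.02, was 0.10 after centring and 0.10 after a loess on level, and 0.53 with a floor at the 95th percentile mark, where 10 members are left. The median of all kept genes was 0 after centring, -0.002 after a loess on level and 0.03 with that floor. For genes over the 99th percentile mark on at least 1 array it was 0.34. Of the 10 members 7 were higher in ventral tissue, beside 3631 of the 7092 genes over the 95th percentile mark. Members over the mark numbered 9 in dorsal and 8 in ventral tissue, 2 and 4 with the 99th percentile as the mark, and 14 and 13 with the 90th. For the other genes of the pathway the count higher in dorsal tissue was 4, and 2 after a loess on genomic span; their median, -0.06, was 0.054 after centring, 0.049 after a loess on level and 0.12 with the higher floor. Centring subtracts the median of all kept genes, -0.12, from every gene, and so raises each median by that amount. A higher floor or mark leaves fewer genes. The cause of the remaining changes was not tested. The counts of pairs under other marks were computed after seeing the data. With no detection calls, signal over background is known through the receptor genes alone, and it limits what can be said of the 28 members under the mark.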
